A study of Mus musculus with 12 samples.

Results

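The 44 genes described here encode the machinery that copies DNA and the enzymes that supply its nucleotides. They were chosen by gene symbol, from their known roles but with earlier results of these data known, and all 44 were found among the 22609 genes of the count tables. They fall into 6 roles, with 8 genes of origin licensing, 9 of origin firing, 9 of primase and the DNA polymerases, 9 of the sliding clamp, its loader and replication protein A (RPA), 4 of Okazaki fragment joining and chromatin assembly, and 5 of nucleotide supply. The counts of these genes ranged from 36 to 7176 reads in a library, and all 44 passed the filter on low counts in every comparison.

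RNAseq was carried out on 12 libraries of mouse ANS (adherent neural stem) cells, a line of neural progenitors grown from E14.5 embryonic brain. At T0 (n = 3) the cells proliferated in growth medium with FGF2 and EGF, each at 20 ng/ml, and 1% N2 supplement. T1 (n = 3) was taken 2 days after a change to medium D1, with FGF at 10 ng/ml, EGF at 2 ng/ml, 0.5% N2 and 1% B27. T2 (n = 4) was taken 2 days, and T3 (n = 2, numbered 1 and 4) 10 days, after a change to medium B, which holds FGF2 at 10 ng/ml, BDNF at 20 ng/ml, 0.5% N2 and 1% B27, on laminin. FGF was therefore present at every time point and EGF only at T0 and T1. The labels call T1 a stage of much reduced proliferation, T2 of absent proliferation and T3 overt differentiation. The study calls the libraries of a time point independent biological replicates, without saying whether each was a separate culture, so p-values measure the spread between these samples, which may be technical.

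Before S phase, the loading factors Cdc6 and Cdt1 place the MCM2-7 helicase on replication origins, a step called licensing. The kinases CDK2-cyclin E and Cdc7-Dbf4 then fire the origin with Mcm10 and the GINS complex, and polymerases held by the PCNA clamp extend primers made by the polymerase alpha-primase complex. Quiescent and differentiated cells shut most of these genes down, and in cycling cells many of them are switched on at the G1/S transition by E2F transcription factors.

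The libraries held 8910724 to 16631614 reads on genes, with a median of 12601169. T0 replicates 1 and 2 were far closer to each other than to T0 replicate 3, and replicate 3 was the highest T0 library for all 44 genes, by 1.13 to 2.20 times over the mean of the other two (median 1.71). The same ratio had a median of 1.02 over the 11903 genes with a mean of at least 1 CPM (counts scaled to library size by TMM) at T0. At T3, replicate 4 was above replicate 1 for all 44 genes, by 1.12 to 2.80 times. The astrocyte markers also set T0 replicate 3 apart, at a sum of 767 CPM beside 1991 and 2068 CPM in T0 replicates 1 and 2, and the part of this difference in the results was not tested. The tests were therefore also run without each of these libraries. Results of those fits are given for the 44 genes and as shares of all genes, but not for other groups of genes. Markers of neural progenitors were present throughout, with Sox2 at 186 to 455 CPM over the 12 libraries. They were not all constant, as the mean of Vim went from 3311 CPM at T0 to 2208 CPM at T2. That of Egfr went from 981 to 1537 CPM. The early neuronal marker Dcx went from 1.76 to 8.18 CPM at T0 to 271 to 550 CPM at T3, and Gad1, the GABA-synthesizing enzyme, from at most 4.05 CPM to 23.9 to 48.7 CPM. The mature neuronal marker Rbfox3 did not exceed 2.31 CPM and Stmn2 did not exceed 0.108 CPM in any library.

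The question at T1 and T2 was how the replication genes changed when the cells left growth medium. All 44 genes were lower at T1 than at T0 in the quasi-likelihood test of edgeR, with p-values adjusted over all 12364 genes tested and a threshold of 0.05. Of all genes tested, 16.8% were lower and 15.1% were higher. The median log2 fold change of the 44 genes was -2.24, against -0.01 for all genes tested, and single genes ranged from -4.02 for Cdt1 to -0.94 for Pold3. At T2 all 44 genes were again lower than at T0, against 21.8% lower and 21.4% higher among the 12607 genes tested, with a median of -2.21. T1 and T2 share the T0 libraries, so these are not independent results. No gene of the 44 had a T1 or T2 library that reached the lowest T0 library, whereas 28% and 27.2% of the genes tested had all T1 or all T2 libraries below all T0 libraries. Without T0 replicate 3, all 44 genes were again lower at both time points, beside 24.9% of all genes at T1 and 25.3% at T2. In RNA from a whole culture, a smaller share of cells in S phase and less RNA per cell cannot be told apart.

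**Figure D1:**
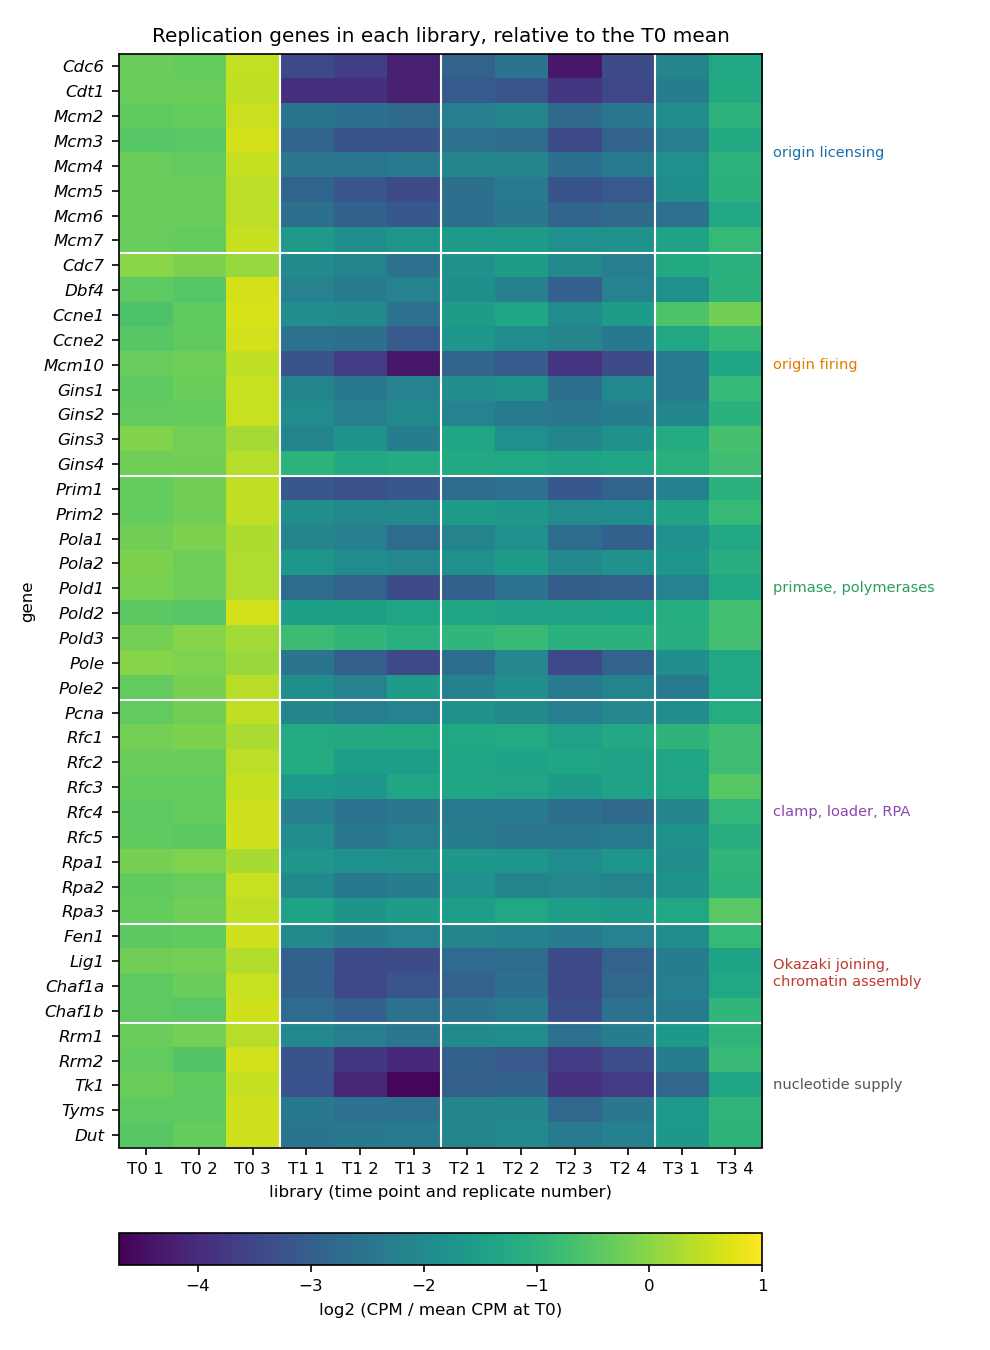
Level of each of the 44 genes (lines, grouped by role) in each of the 12 libraries (columns), as log2 of CPM over the mean CPM at T0. T1 and T2 libraries are the darkest, T0 replicate 3 is the brightest column, and T3 replicate 4 lies between T3 replicate 1 and the T0 libraries.

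Origin licensing genes fell by a median of 2.99 at T1 and 2.69 at T2 on the log2 scale. Cdt1 (NCBIM37 chr8:125091915-125097028, plus strand), the loading factor that is degraded once S phase begins, was at 80.7, 81.98 and 137 CPM at T0, 6.64, 6.50 and 5.49 at T1, 11.8, 11.1, 7.28 and 9.03 at T2, and 20.1 and 42.1 at T3. It was the lowest of the 44 genes relative to T0, at 6.21% of the T0 mean at T1 and 9.80% at T2 (log2 fold change with its standard error, SE, -4.02 ± 0.26 and -3.34 ± 0.25, adjusted p = 0.000398 and 7.53e-05, edgeR). Its partner Cdc6, an ATPase that recruits the helicase, showed a log2 fold change of -3.74 ± 0.32 at T1 and -3.12 ± 0.38 at T2.

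The 6 subunits of the MCM2-7 helicase did not fall to the same extent. Mcm5 (chr8:77633427-77652338, plus strand) was at 259, 260.0 and 421 CPM at T0, 42.7, 34.4 and 29.7 at T1, 51.6, 60.4, 33.8 and 36.3 at T2, and 86.7 and 154 at T3. Mcm7 (chr5:138605811-138613650, minus strand) was at 155, 152 and 276 CPM at T0, 62.8, 52.98 and 59.3 at T1, 64.4, 64.6, 53.96 and 56.3 at T2, and 72.5 and 105 at T3. Both were below T0 in every later library, but Mcm5 fell to 11.4% of its T0 mean at T1 and Mcm7 to 30.1%. The log2 fold change at T1 was -3.14 ± 0.25 for Mcm5, -1.74 ± 0.25 for Mcm7, and -3.10 to -2.41 for Mcm2, Mcm3, Mcm4 and Mcm6. Levels of different genes can be compared per length, as in the deposited FPKM values (fragments per kilobase, scaled to the mapped reads). On that scale Mcm7 held 13.6% to 14.8% of the summed FPKM of the 6 subunits in the T0 libraries, 31.1% to 35.7% at T1 and 28.6% to 38.1% at T2, where it was the highest of the 6. With counts per kilobase of coding transcript in place of FPKM, its share went from 14.1% to 14.4% at T0 to 24.8% to 27.9% at T1 and 21.7% to 26.2% at T2. Exons of Mcm7 overlap those of Ap4m1 and Cops6 on the opposite strand. The strand setting of the counting is not given in the sources used here, and the locus of Mcm7 in the FPKM table is over 2 times as long as the gene. The part of these neighbours in the Mcm7 level was not tested.

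Origin firing genes fell by a median of 2.21 at T1 and 2.00 at T2 (log2). Mcm10, which joins the helicase as the origin fires, had the largest fall of this role, at 69.5, 72.1 and 118 CPM at T0, 9.14, 6.87 and 4.27 at T1, 12.04, 10.4, 6.01 and 8.17 at T2, and 17.00 and 34.4 at T3. It reached 7.80% of the T0 mean at T1 (log2 fold change -3.70 ± 0.35, adjusted p = 0.000703, edgeR) and 10.6% at T2. Cyclin E1, encoded by Ccne1 (chr7:38883003-38892553, minus strand), was at 21.98, 25.2 and 51.97 CPM at T0, 8.88, 8.22 and 5.55 at T1, 11.2, 13.1, 8.55 and 11.1 at T2, and 21.9 and 28.6 at T3. It fell by 2.14 ± 0.38 (SE) on the log2 scale at T1 and by 1.58 ± 0.30 at T2, and at T3 replicate 4 lay within the T0 range and replicate 1 just below the lowest T0 library. The T2 call of Ccne1 was lost with the replicate number as a block (adjusted p = 0.0533, edgeR).

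Gins4, a subunit of the GINS complex that links the MCM helicase to the polymerase, had the smallest fall of this role, at 51.8, 52.3 and 79.2 CPM at T0, 30.2, 25.6 and 26.8 at T1, 25.99, 24.6, 23.2 and 24.3 at T2, and 28.98 and 36.5 at T3. Gins2 was at 35.3, 36.1 and 66.3 CPM at T0, 11.9, 9.79 and 11.1 at T1, 10.1, 9.16, 8.64 and 9.40 at T2, and 10.9 and 22.1 at T3. Gins4 kept 45.0% of its T0 mean at T1, while Gins1, Gins2 and Gins3, whose products form the same complex, kept 21.5%, 23.8% and 24.3%. The T1 and T2 libraries of Gins4 were all below its T0 libraries. Of the Cdc7 kinase and its activator Dbf4, Cdc7 fell by 2.21 ± 0.17 (SE) on the log2 scale at T1 and Dbf4 by 2.23 ± 0.32.

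Primase and polymerase genes fell by a median of 1.97 at T1 and 2.10 at T2 (log2), and the fitted fall of each catalytic subunit was larger than that of its accessory subunits. These differences between genes were not tested. Pold1 (chr7:51788116-51804219, minus strand), the catalytic subunit of the lagging-strand polymerase delta, was at 113, 105 and 158 CPM at T0, 19.7, 16.96 and 12.01 at T1, 16.4, 21.7, 15.6 and 16.04 at T2, and 27.9 and 51.6 at T3. Pold3 (chr7:107230621-107270075, minus strand), an accessory subunit of the same polymerase, was at 49.2, 54.5 and 64.9 CPM at T0, 32.2, 29.1 and 26.7 at T1, 29.05, 31.5, 27.03 and 27.6 at T2, and 26.3 and 34.7 at T3. Pold1 kept 12.9% of its T0 mean at T1 and Pold3 kept 52.2%, the highest share of the 44 genes. The log2 fold change at T1 was -2.96 ± 0.24 for Pold1 and -0.94 ± 0.15 for Pold3 (adjusted p = 0.000529 and 0.00494, edgeR).

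The second accessory subunit of delta, Pold2, was at 154, 151 and 323 CPM at T0, 74.3, 75.8 and 83.4 at T1, 83.4, 78.3, 78.9 and 79.9 at T2, and 93.1 and 127 at T3. It had the highest mean FPKM of the 44 genes at every time point, with 169 ± 94.9 (SD) FPKM at T0 and 56.3 ± 4.07 at T1. Its T1 call (log2 fold change -1.43 ± 0.31, adjusted p = 0.0141, edgeR) did not survive the removal of any single T1 library, with adjusted p-values of 0.0554 to 0.0667. On the FPKM scale Pold3 in T1 replicate 1 (26.4 FPKM) lay above its lowest T0 library (25.4 FPKM).

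Ratios of FPKM within a library describe the same inequality. These pairs were chosen after the values were seen and are given without a test. The ratio of Pold1 to Pold3 was 1.05 to 1.45 in the T0 libraries, 0.204 to 0.584 at T1, and 0.459 to 0.475 at T2, and the T3 libraries had 0.659 and 1.31. Prim1, the primase subunit that makes the RNA primer, stood to Prim2, its regulatory partner, as 1.37 to 1.49 at T0, as 0.608 to 0.650 at T1 and as 0.626 to 0.8291 at T2. For the leading-strand polymerase epsilon, the ratio of Pole to Pole2 was 0.678 to 0.882 at T0 and 0.229 to 0.454 at T1, and its T2 range of 0.366 to 0.714 overlapped T0. In polymerase alpha the ratio of Pola1 to Pola2 went from 0.663 to 0.771 at T0 to 0.449 to 0.601 at T1. In each of these 4 pairs the T1 ratios did not overlap the T0 ratios, also with counts per kilobase of coding transcript.

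**Figure D2:**
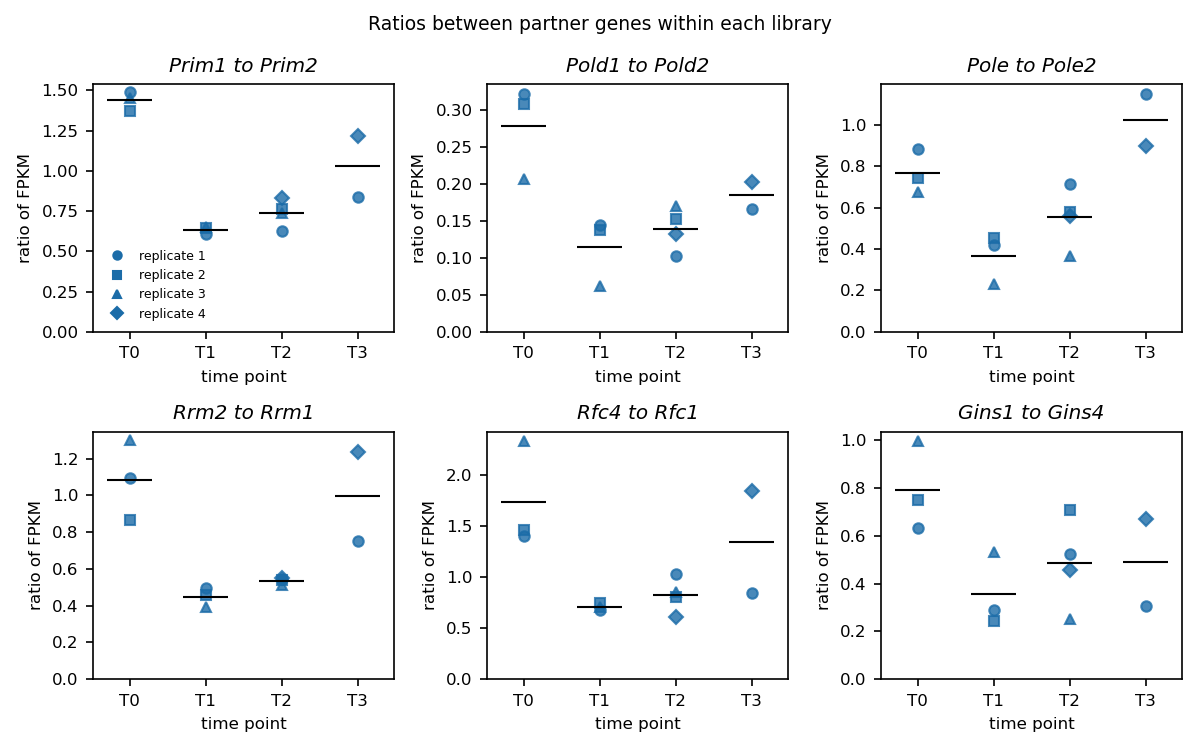
Ratio of deposited FPKM between 2 partner genes (y axis) at each time point (x axis), with a point for each library, shaped by replicate number, and a bar for the mean. The ratio of Prim1 to Prim2 was 1.37 to 1.49 at T0 and 0.608 to 0.650 at T1, and that of Rrm2 to Rrm1 was 0.864 to 1.30 at T0 and 0.391 to 0.495 at T1.

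Clamp, clamp loader and RPA genes had the smallest median fall of the 6 roles, 1.78 at T1 and 1.73 at T2 (log2). Pcna (chr2:132074898-132079050, minus strand), the sliding clamp, was at 96.9, 107 and 173 CPM at T0, 29.4, 26.5 and 27.99 at T1, 36.8, 31.7, 26.7 and 30.1 at T2, and 33.7 and 55.3 at T3. Rpa1, the large subunit of the complex that coats single-stranded DNA, was at 357, 373 and 478 CPM at T0, 122, 113 and 117 at T1, 127, 122, 105 and 125 at T2, and 109 and 209 at T3. Pcna kept 22.3% and Rpa1 29.1% of the T0 mean at T1, with a log2 fold change of -2.17 ± 0.24 and -1.78 ± 0.15. Among the 5 genes of the clamp loader, Rfc4 was at 46.6, 48.8 and 91.96 CPM at T0, 13.4, 10.8 and 11.6 at T1, 12.5, 12.03, 10.4 and 9.46 at T2, and 14.4 and 33.04 at T3. Rfc1, the large subunit, was at 187, 197 and 259 CPM at T0, 92.9, 90.8 and 90.9 at T1, 87.4, 92.2, 78.5 and 88.96 at T2, and 108 and 129 at T3. Rfc1 fell least of this role, by 1.23 ± 0.15 (SE) at T1 and 1.29 ± 0.13 at T2 on the log2 scale, while Rfc4 fell by 2.39 ± 0.30 and 2.48 ± 0.26. The ratio of Rfc4 to Rfc1 in FPKM was 1.396 to 2.33 at T0 and 0.675 to 0.744 at T1. Exons of Rfc4 overlap those of Eif4a2 on the opposite strand.

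Genes that join Okazaki fragments or assemble new chromatin fell by a median of 2.95 at T1 and 2.75 at T2 (log2). Lig1 (chr7:13862632-13896782, plus strand), the ligase that seals the nicks, was at 210.1, 218 and 312 CPM at T0, 32.5, 23.5 and 23.6 at T1, 37.6, 38.6, 23.5 and 32.8 at T2, and 49.6 and 94.2 at T3. Fen1, the nuclease that trims the flap before ligation, was at 81.3, 83.4 and 164 CPM at T0, 26.9, 22.6 and 24.1 at T1, 25.5, 23.8, 21.8 and 24.5 at T2, and 29.1 and 59.7 at T3. Lig1 kept 10.8% of its T0 mean at T1 (log2 fold change -3.22 ± 0.22) and Fen1 kept 22.4% (-2.16 ± 0.30). The histone chaperone CAF-1 deposits histones behind the fork, and its large subunit gene Chaf1a was at 99.4, 107 and 190.3 CPM at T0, 17.2, 12.3 and 14.45 at T1, 17.7, 21.7, 12.2 and 19.1 at T2, and 28.2 and 53.8 at T3. Chaf1b, its second subunit, was at 73.5, 71.3 and 148 CPM at T0, 14.8, 12.9 and 16.7 at T1, 16.9, 19.4, 9.74 and 16.5 at T2, and 19.01 and 50.3 at T3. The CAF-1 genes fell by 3.19 ± 0.30 (SE, Chaf1a) and 2.72 ± 0.32 (Chaf1b) on the log2 scale at T1, and none of their T1 or T2 libraries reached the T0 range.

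Nucleotide supply genes fell by a median of 2.52 at T1 and 2.32 at T2 (log2). Tk1 (chr11:117676840-117687406, minus strand), the thymidine kinase of S phase, was at 83.4, 77.7 and 144 CPM at T0, 10.5, 5.98 and 4.21 at T1, 13.00, 13.3, 6.92 and 7.86 at T2, and 14.3 and 39.9 at T3. Rrm2 (chr12:25393106-25399011, plus strand), the small subunit of ribonucleotide reductase, was at 161, 144 and 319.9 CPM at T0, 22.1, 15.2 and 12.4 at T1, 26.9, 24.3, 16.4 and 20.4 at T2, and 42.1 and 117 at T3. Tk1 kept 6.79% and Rrm2 7.94% of the T0 mean at T1 (log2 fold change -3.90 ± 0.41 and -3.67 ± 0.39, adjusted p = 0.00104 and 0.00105, edgeR). Dut, which removes dUTP so that uracil stays out of DNA, was at 76.2, 83.5 and 160.3 CPM at T0, 19.1, 20.3 and 21.2 at T1, 25.04, 26.3, 20.5 and 23.3 at T2, and 33.8 and 53.6 at T3. It kept 19.0% of the T0 mean at T1, and its log2 fold change was -2.40 ± 0.30. Rrm1, the large subunit of ribonucleotide reductase, kept 21.1% at T1, so the ratio of Rrm2 to Rrm1 in FPKM went from 0.864 to 1.30 at T0 to 0.391 to 0.495 at T1 and 0.513 to 0.549 at T2. At T3 it was 0.754 in replicate 1 and 1.23 in replicate 4.

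Of 21 other genes of nucleotide synthesis and salvage, 14 were lower and 2 higher at T1, and 16 were lower and 2 higher at T2. Among all genes tested the lower share was 16.8% at T1 and 21.8% at T2, and the higher share, 15.1% and 21.4%, was above that of these 21 genes. The largest fall past the threshold at T2 was that of Shmt1, a serine hydroxymethyltransferase of folate metabolism (log2 fold change -2.54). Rrm2b, the small reductase subunit of non-dividing cells, was at 41.8, 42.1 and 27.6 CPM at T0, and rose by 0.61 on the log2 scale at T1 and 0.54 at T2. Tk2, the mitochondrial thymidine kinase, was at 25.3, 26.0 and 21.5 CPM at T0 and 40.3, 38.9 and 41.2 CPM at T1, and rose by 0.72 and 0.71. Samhd1, which degrades deoxynucleotides, fell by 1.85 at T1 and 1.84 at T2. T0 replicate 3 was the lowest T0 library for Rrm2b and Tk2 and the highest for Samhd1.

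**Figure D3:**
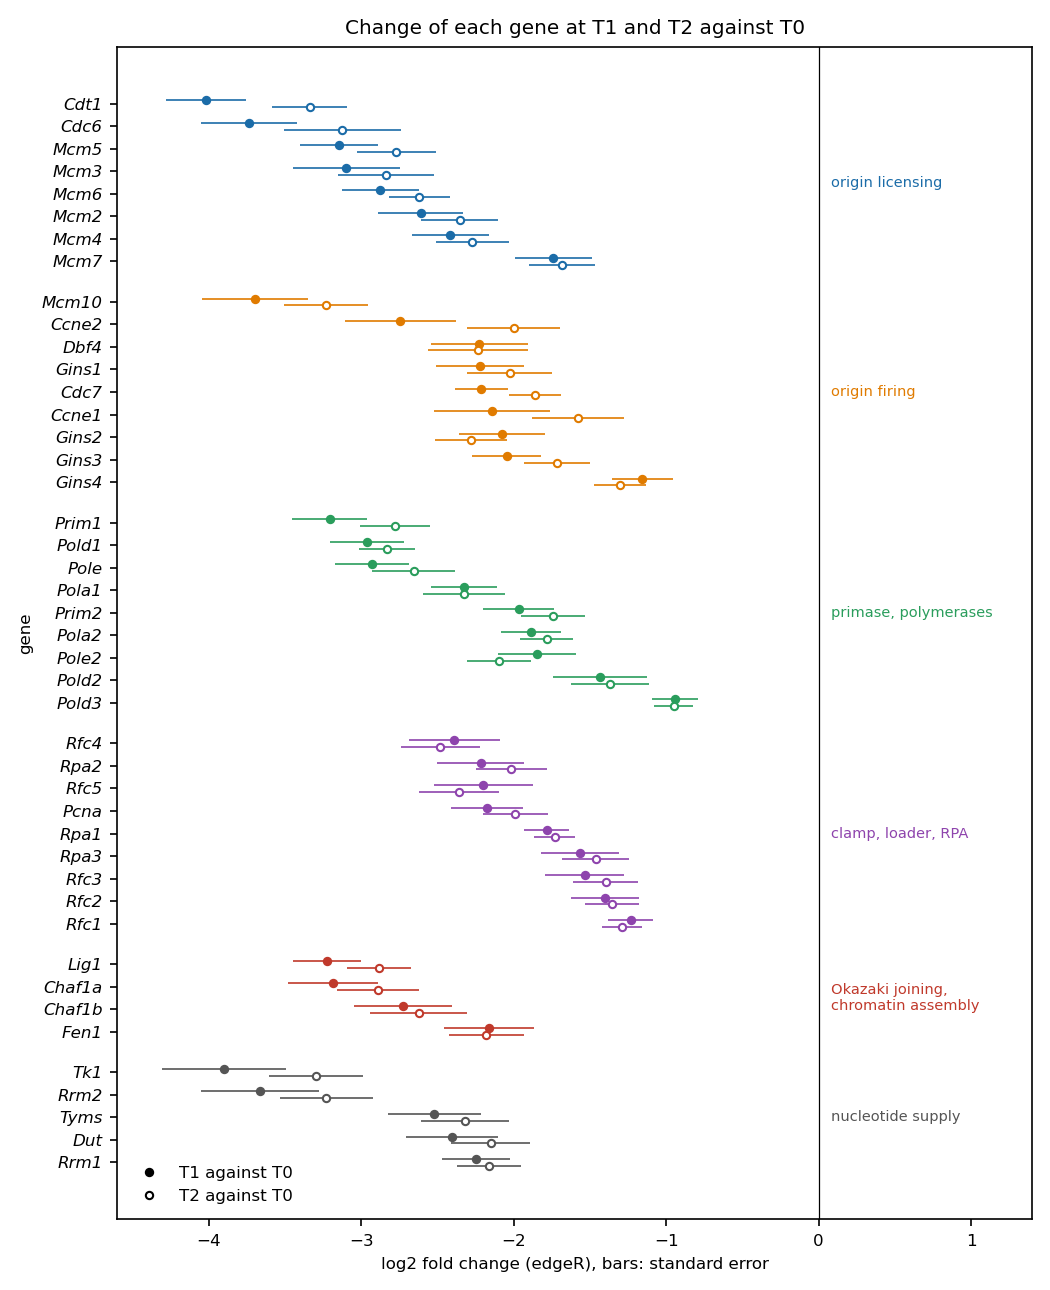
Log2 fold change (x axis) of each of the 44 genes (y axis, grouped by role and sorted by the T1 value) at T1 (filled) and T2 (open) against T0, with its standard error from edgeR. Values run from -4.02 for Cdt1 to -0.94 for Pold3 at T1, and no interval reaches 0.

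Further genes of the pathway were lower as well, beside 16.8% of all genes tested at T1 and 21.8% at T2. Of 10 other licensing genes, 5 were lower at T1 and 7 at T2, and none was higher. Gmnn, the inhibitor of Cdt1, had the largest fall of these at T2 (-3.25). All 8 other firing genes tested were lower at both time points, with the largest fall for Cdc45 (-3.28 at T2), the partner of MCM and GINS in the active helicase. Of 14 other fork genes, 10 were lower at T1 and 11 at T2, led by Chtf18 (-3.15 at T2), a subunit of an alternative clamp loader. Of 9 genes that copy chromatin, 7 were lower at T1 and 8 at T2, led by Uhrf1 (-3.07 at T2), which guides maintenance of DNA methylation. Asf1a, a histone chaperone, was higher at T2 by 0.38.

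All 20 genes of mitosis were lower at both time points. Their log2 fold changes had a median of -3.70 at T1 and -3.17 at T2, beside -2.24 and -2.21 for the 44 replication genes. The mitosis genes ranged from -4.18 to -3.39 at T1 and the replication genes from -4.02 to -0.94. Only 5 of the 44 replication genes, Cdt1, Tk1, Cdc6, Mcm10 and Rrm2, fell at T1 at least as far as the mitosis gene with the smallest fall, and 14 did at T2. The difference between the lists was not tested.

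Promoters are shown because E2F sites are a well known shared element of such genes. RefSeq promoters (GRCm38.p6, 250 bases before to 50 bases after the start of each gene) were at hand for 36 of the 44 genes. They were searched on both strands for the E2F octamers TTTCCCGC, TTTGGCGC and TTTCGCGC, whose matches can overlap. At least 1 octamer was found in 13 of the 36 genes (36.1%), in 4.17% of the 8977 genes tested at T2 that have a promoter, and in 2.12% of all 27025 genes. Of 18 mitosis genes with a promoter, 1 held an octamer. The CHR element TTTGAA, a mark of genes expressed in G2 and M, was found in 6 of the 36 replication genes (16.7%), in 13 of the 18 mitosis genes (72.2%) and in 13.7% of the genes tested. A match of letters is not a measured binding site. The windows below hold an octamer in capitals with 10 bases on each side, written in the direction of the gene, and are shown for the genes of the largest and the smallest fall and for others of licensing, polymerase and ligation. In Mcm5 a second octamer overlaps the one shown. Their coordinates are those of GRCm38.p6, while gene positions elsewhere are those of NCBIM37.
Cdt1, chr8:122568037-122568064, plus strand: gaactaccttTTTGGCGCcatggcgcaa
Cdc6, chr11:98908003-98908030, plus strand: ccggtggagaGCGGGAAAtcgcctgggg
Mcm5, chr8:75109346-75109373, plus strand: cgccaagaacTTTCGCGCcaaaacgtcc
Pola1, chrX:93632276-93632303, minus strand: tcatcacaggGCGCCAAAtgcactcccg
Lig1, chr7:13278842-13278869, plus strand: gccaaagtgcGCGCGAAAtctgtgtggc
Pold3, chr7:100121468-100121495, minus strand: agcgaagctgTTTCCCGCcggcgggagc

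The octamer of Cdt1 starts at position 32 and that of Pold3 at position 17, counted from the start site at 0, while that of Cdc6 starts at position -138. The 13 genes with an octamer had a median log2 fold change of -2.87 at T1. With the heptamers TTCCCGC and TTGGCGC added, the 22 genes with an octamer or heptamer had a median of -2.36. The 14 genes with neither had a median of -2.21. The octamer set and the set with neither spanned most of the range, from -4.02 to -0.94 and from -3.90 to -1.43. Pold3, with the smallest fall of the 44, holds an octamer. Of the 8 E2F factors themselves, 7 were lower at T1 and 7 at T2, beside 16.8% and 21.8% of all genes tested. The largest fall at T2 was that of E2f7, a repressor of the family, with a log2 fold change of -3.21.

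Between T1 and T2, EGF was withdrawn and BDNF added. By the study's methods the cells were also dissociated, replated on laminin and given another base medium, and these changes cannot be told apart. None of the 44 genes was called in either direction by edgeR in T2 against T1. Among the 12382 genes tested, 0.0565% were lower and 0.573% higher. At an unadjusted p under 0.05, 4 genes were higher and 0 lower, against 7.43% and 4.23% of all genes. All T2 libraries were above all T1 libraries for 3 genes, beside 6.4% of all genes. Both counts, which hold only Cdt1, Ccne1, Ccne2 and Prim1, are near the share of all genes in this fit. The unadjusted higher count moved with the libraries used. It was 3 to 12 when a library was left out, beside 5.87% to 7.49% of all genes. With libraries numbered 1 and 2 only it was 21, beside 8.21%. DESeq2 called none and found 4 higher at an unadjusted p under 0.05. Same-numbered T1 and T2 libraries deviated alike from their group means, but whether the numbers mark pairs is not known. With the number as a block 0 genes were called. In that fit 15 were higher and 0 lower at an unadjusted p under 0.05, beside 10.8% higher and 9.04% lower among all genes. The median log2 fold change was 0.18, and T2 replicate 3 was the lowest T2 library for 34 of the 44 genes.

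At T3 most replication genes stood between T0 and the earlier time points. The T3 mean of each of the 44 genes was below its T0 mean and above both its T1 and T2 means in CPM. In FPKM this held for 42 genes, as the T3 mean of Pold3 (12.2 FPKM) was below its T1 and T2 means (19.4 and 16.0 FPKM) and that of Pole2 (5.39 FPKM) was below its T1 mean (5.85 FPKM). Relative to T0 the median was 38.3% at T3, beside 21.3% at T1 and 21.4% at T2, and it ranged from 26.7% for Tk1 to 76.4% for Ccne1. Summed over the 44 genes, the level was 4591, 4662 and 7779 CPM at T0, 1269.8, 1109.7 and 1102 at T1, 1364, 1394, 1058 and 1199.5 at T2, with 1627 and 2808 in the T3 libraries. Both T3 libraries were thus above every T1 and T2 library and below every T0 library in the sum, with T3 replicate 4 far above replicate 1.

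**Figure D4:**
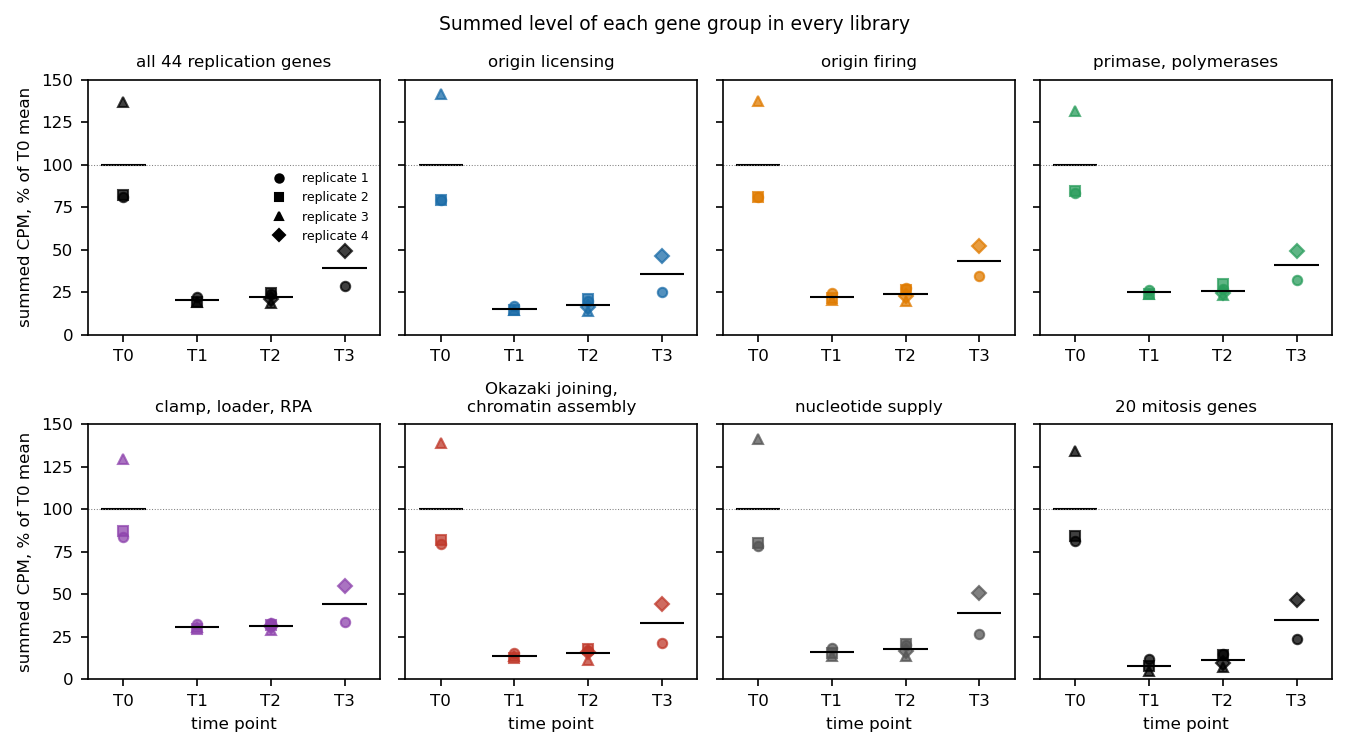
Summed CPM of the 44 genes, of each role and of 20 mitosis genes (panels), as a percent of the T0 mean (y axis), at each time point (x axis), with a point for each library and a bar for the mean. The sum of the 44 genes was 19.4% to 22.4% at T1, 18.6% to 24.6% at T2, with 28.7% and 49.5% in the T3 libraries.

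Against T0, 3 of the 44 genes were lower at T3 and 0 higher in edgeR, beside 1.41% lower and 3.31% higher among the 12721 genes tested. Cdc7 (chr5:107393341-107413451, plus strand), the kinase that fires origins, was at 69.5, 64.7 and 76.2 CPM at T0, 17.5, 16.1 and 12.01 at T1, 20.5, 23.5, 17.8 and 14.7 at T2, and 29.7 and 33.2 at T3. Pola1 (chrX:90550106-90877494, minus strand), the catalytic subunit of polymerase alpha, was at 86.4, 93.4 and 126 CPM at T0, 23.6, 21.8 and 15.9 at T1, 23.1, 28.5, 15.8 and 13.3 at T2, and 29.1 and 42.2 at T3. Pole (chr5:110715325-110766493, plus strand), that of polymerase epsilon, was at 109, 104 and 124 CPM at T0, 19.9, 14.3 and 10.4 at T1, 18.2, 26.9, 10.4 and 15.2 at T2, and 30.8 and 45.2 at T3. In each of the 3 the T3 libraries were below all T0 libraries, and T0 replicate 3 was above the mean of the other T0 libraries by less than in most of the 44 genes (1.13 times for Cdc7 and 1.16 for Pole). Their log2 fold changes were -1.14 ± 0.17, -1.50 ± 0.26 and -1.55 ± 0.22 (SE), with adjusted p-values of 0.0290, 0.0399 and 0.0270 (edgeR). These calls depended on the libraries used, as did those over all genes. Without T0 replicate 1 or T0 replicate 2, 0 of the 44 genes were called, beside 0.00794% and 0.016% of all genes lower. Without T0 replicate 3, 15 were called lower, beside 8.49% of all genes. The median log2 fold change was -0.987 without T3 replicate 1 and -1.85 without T3 replicate 4, fits that leave 1 T3 library.

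At an unadjusted p under 0.05, 40 of the 44 genes were lower at T3, beside 12.6% of all genes tested, and 43 had both T3 libraries below all T0 libraries, beside 25.8%. Without T3 replicate 1 the unadjusted count was 14, beside 5.09% of all genes. Fitted changes were below 0 for all 44 genes, beside 51.3%, with a median of -1.37. DESeq2 called 37 of the 44 lower, beside 7.41% of all genes. The exception to the separation in CPM was Ccne1, whose T3 libraries (21.9 and 28.6 CPM) were not both below the lowest T0 library (21.98 CPM). Its log2 fold change of -0.37 ± 0.41 (SE) turned to 0.11 without T0 replicate 3. In FPKM both T3 libraries of Ccne1 (9.48 and 10.9) were below its lowest T0 library (12.2). There the exception was Rfc3, at 47.6 FPKM in T3 replicate 4 and 42.7 FPKM in its lowest T0 library.

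Against T2, 3 of the 44 genes were higher at T3 and 0 lower, beside 0.5% higher and 0.691% lower among the 12599 genes tested. These were Rrm2 with a log2 fold change of 1.86 ± 0.35 (SE), Cdt1 with 1.66 ± 0.30 and Ccne1 with 1.20 ± 0.20, with adjusted p-values of 0.0497, 0.0469 and 0.0437 (edgeR). The values of these genes in each library, given above, show both T3 libraries above all 4 T2 libraries. No gene was called when any of the 4 T2 libraries was left out, beside 0.00798% to 0.0399% of all genes higher. With the replicate number as a block 0 were called, beside 0.0397%. T3 holds only the numbers 1 and 4, so that fit compares T3 with T2 within those numbers alone and can call little. In it 29 genes were higher at an unadjusted p under 0.05, beside 6.41% of all genes. The median log2 fold change was 1.23 without T3 replicate 1 and 0.444 without T3 replicate 4. In such a fit the lone T3 library is assumed to vary like the T2 libraries. With all T2 and T3 libraries and no block, 39 genes were higher at an unadjusted p under 0.05 (9.45% of all genes). For 35 genes both T3 libraries were above all T2 libraries (13.6%). Without T3 replicate 4 the unadjusted count was 18, beside 7.3% of all genes. Fitted changes were above 0 for all 44 genes (51.2%). The difference was not particular to replication genes. All 20 mitosis genes had both T3 libraries above all T2 libraries, with a median log2 fold change of 1.62, beside 0.88 for the 44 genes. Against T0 the medians at T3 were -1.55 for the mitosis genes and -1.37 for the 44 genes. These differences between the lists were not tested.

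The size of the difference between T3 and T2 depended on the library. T3 replicate 1 was above T2 replicate 1 for 38 of the 44 genes, with a median ratio of 1.18 over the 44, and T3 replicate 4 was above T2 replicate 4 for all 44, with a median ratio of 2.47. Without T3 replicate 4 the median log2 fold change went from 0.88 to 0.44, and 4 genes turned to a lower value at T3: Gins1 (-0.34), Pole2 (-0.25), Rpa1 (-0.15) and Pold3 (-0.14). Markers of other cells also differed between the T3 libraries. The 6 neuronal markers summed to 2722 CPM in replicate 1 and 1695 CPM in replicate 4, beside 893 to 965 CPM at T0. Mtap2 made up most of this sum, with 1309 to 1945 CPM at T3 and already 880 to 921 CPM at T0. The 6 markers of the oligodendrocyte lineage summed to 261 and 78.9 CPM, beside 5.99 to 43.1 CPM at T0, 101 to 205 at T1 and 157 to 209 at T2. Of these, Pdgfra made up most of the sum, with 67.5 to 229 CPM at T3, while Mag did not exceed 0.0926 CPM in any library. The part of these cells in the T3 results was not tested. No microglia marker was above 3 counts in any library, and Lum and Pdgfrb, of fibroblasts and mural cells, had none.

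Genes that fell further at T1 were further above T2 at T3. Over the 44 genes the log2 fold changes of T1 against T0 and of T3 against T2, which share no library, had a Pearson correlation of -0.92 and a Spearman correlation of -0.90, beside -0.52 and -0.51 over the 12242 genes tested in both. Genes are not independent replicates, and no p-value is given. With T0 replicate 3 and T3 replicate 4 left out, the Pearson correlation of the log2 ratios of mean CPM was -0.69. Ccne1 lay off this line, with a fall of 2.14 at T1 and a T3 value 1.20 above T2, and Pold3, with the smallest fall, had the smallest difference at T3 (0.08).

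**Figure D5:**
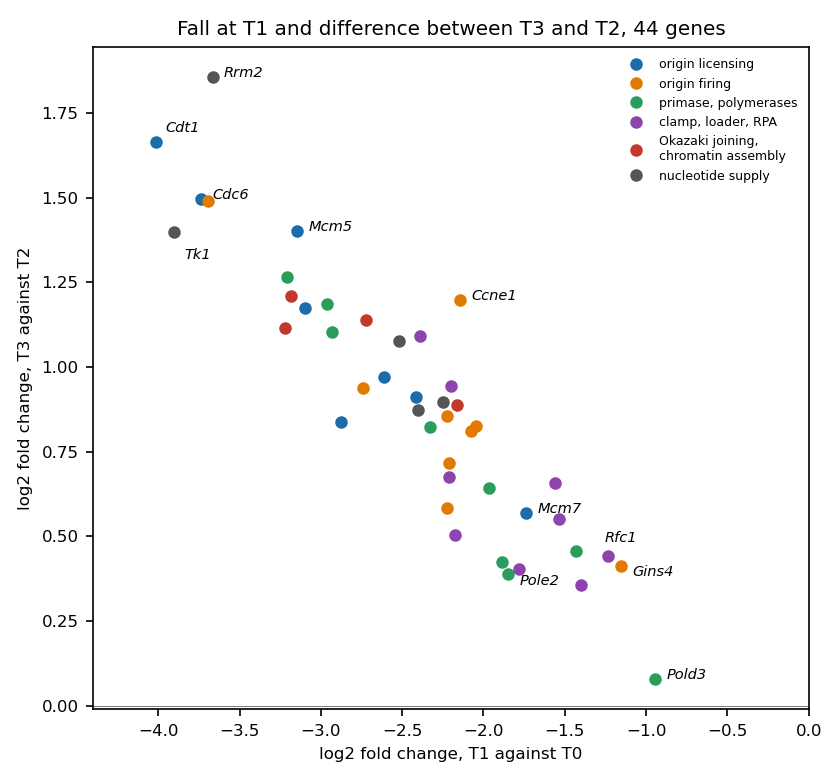
Log2 fold change of T3 against T2 (y axis) against that of T1 against T0 (x axis) for the 44 genes, coloured by role. Points run from Rrm2 and Cdt1 (1.86 and 1.66 on the y axis) to Pold3 (0.08), with a Pearson correlation of -0.92 across genes.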

How the data were processed

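The 12 libraries were made with the TruSeq RNA kit v2 and sequenced on an Illumina HiScanSQ. The submitters' processing notes name CASAVA 1.8, TopHat2 2.0.6, Bowtie 0.12.7.0, HTSeq 0.6.0 and DESeq2 1.0.0, and the mouse build mm9. The authors deposited raw counts per gene for each library. Library sizes and tests used the 22609 genes, without the 5 entries that name none. The no-feature entry held 13.3% to 24.1% of uniquely placed reads. The strand setting is not given in the sources used here, and exons of 10 of the 44 genes overlap another coding gene on the opposite strand (Mcm7, Ccne2, Gins2, Rfc4, Rfc5, Fen1, Lig1, Chaf1a, Tk1 and Tyms). FPKM values, also deposited by the authors, served to compare genes within a library. For 6 of the 44 genes the FPKM locus is over 2 times as long as the gene.

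Counts were scaled by TMM and filtered with filterByExpr, and each pair of time points was fitted on its own libraries with glmQLFit and glmQLFTest of edgeR 4.0.16 in R 4.3.3. Benjamini-Hochberg adjustment ran over all genes tested, with a threshold of 0.05. Standard errors were derived from the F statistic. The fits were tested on simulated counts. The alternatives were DESeq2 1.42.0, its size factors, no filter, a fit of all 12 libraries, leaving out each library, libraries numbered 1 and 2 only, and a block of the replicate number. The members, the lists and the promoter motifs were chosen with earlier results of these data known. Values in every library are given for the 2 genes of each role with the highest mean FPKM, those with the largest and the smallest fall at T2 and every gene called at T3. Deviations of same-numbered T1 and T2 libraries from their group means correlated in all 3 pairs (r of 0.251, 0.396 and 0.18 across genes). The highest correlation was between libraries of different number, T2 replicate 4 and T1 replicate 3 (r of 0.43). Whether the numbers mark pairs is therefore not known. Gene positions are those of GENCODE vM1 on NCBIM37 (mm9). Depth limits the precision by counting error, and the lowest count of a member in a library was 36.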

Additional observations from a re-analysis of the deposited data

Results flagged for a closer look

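At T2, Pold1 stood out in 1 library: replicate 2 was at 21.7 CPM and the other 3 libraries at 15.6 to 16.4 CPM, a gap of 0.857 of the whole range, above the critical value of Dixon's test for 4 samples. It was the only 1 of the 44 genes to do so, and chance flags about 1 in 20 such groups.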

How the results depend on the processing

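The calls at T1 and T2 against T0 held in edgeR and DESeq2, with either scaling, with and without the filter and in the fit of all libraries, with 43 or 44 of the 44 genes lower under each alternative. The exceptions were Pold2 at T1 without each T1 library and Ccne1 at T2 with the replicate number as a block. Leaving out each library gave 43 to 44 lower genes at T1 and 44 at T2. The share of all genes lower was then 7.5% to 24.9% at T1 and 16.6% to 25.3% at T2. Over all the alternatives this share was 7.5% to 29.9% at T1 and 12.2% to 27.4% at T2. The calls at T3 depended on the fit. Against T0, 3 genes were lower, beside 37 with DESeq2, 18 without the filter on low counts, 42 in the fit of all 12 libraries and 0 to 15 when a library was left out. Against T2, 3 were higher, beside 26 with DESeq2, 25 without the filter, 1 in the fit of all 12 libraries, 0 with the replicate block and 0 to 40 when a library was left out. The counts without the filter and in the fit of all libraries rest on 17361 and 12952 genes tested against T0. The share of all genes called also moved. Lower against T0 it was 1.41%, beside 7.41% with DESeq2, 2.62% without the filter and 14.4% in the fit of all libraries. It was 0.00794% to 8.49% when a T0 library was left out. Higher against T2 it was 0.5%, beside 3.49%, 2.35% and 0.139% in that order. It was 0.0397% with the replicate block and 0.00798% to 0.0399% when a T2 library was left out. No gene of the 44 was called in those fits. The highest count against T2 with a library left out came only from the fit without T3 replicate 1. The share of all genes called higher was also larger in that fit than in the main fit. The fit of all libraries shares the spread of T1 and T2 with the other groups. Where T3 was left with 1 library, that library was assumed to vary like the other group. No fitted change turned its sign at T1 or T2 against T0. Against T0, Ccne1 ranged from -0.5962 to 0.1113 when a library was left out. Against T2, Gins1 ranged from -0.3393 to 1.161, Pold3 from -0.1444 to 0.2728, Pole2 from -0.2491 to 0.8384 and Rpa1 from -0.1503 to 0.8012, each lowest without T3 replicate 4. Deviations of same-numbered libraries did not all correlate positively in T1 against T0 (r of -0.0164, 0.135 and 0.0732) or T2 against T0 (-0.0843, 0.00454 and -0.17). The same held for T3 against T2 (-0.0495 and 0.275). The replicate block gave 44, 43 and 0 calls in these comparisons, in that order. By the labels, T3 and T0 share only the number 1, so no block was fitted there. The name of the deposited values of T3 replicate 4 also holds a 2, and the block and the ratios to T2 replicate 4 rest on the number in the label. The median level relative to T0 was 21.3% at T1 in TMM-scaled CPM, 21.8% in plain CPM and 19.9% in FPKM, and at T3 it was 38.3%, 41.2% and 32.7%. The correlation across the 44 genes was also computed without T0 replicate 3 and T3 replicate 4, a choice made after seeing the data. The cause of these differences was not tested.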

Other observations

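Libraries of a time point also differed in a common direction in the 44 genes at T1 and T2. T1 replicate 1 was the highest T1 library for 37 genes, T2 replicate 2 was the highest T2 library for 24 and replicate 1 for 19, and T2 replicate 3 was the lowest for 34. The mitosis genes were at 11.6%, 7.61% and 4.79% of the T0 mean in T1 replicates 1, 2 and 3 when summed, beside 22.4%, 19.6% and 19.4% for the 44 replication genes.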
